A study of Macaca mulatta with 8 samples.

Results

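The protocadherins are the largest family of cadherin-type adhesion proteins, and 23 of the 26533 features in the count tables carried a symbol beginning with PCDH, the rule by which the members were chosen. They comprised 10 genes that stand alone in the genome and 13 from the clustered arrays, with 1 of the alpha array, 11 of the beta array and 1 of the gamma array. Another 2 family genes, PCDH11X and PCDH20, were listed by identifier only and so were not members. Single-cell RNA was sequenced from 8 retinal punches of 2 male rhesus macaques. NHP1, aged 5 years, had received the AAV2-CAG-hRPE65 vector in both eyes and gave retina labelled uninjected from each eye. NHP2, aged 6 years, gave from each eye an uninjected area, a bleb of AAV8-GRK1-hRPGR and a bleb of AAV8-GRK1-mScarlet, where GRK1 is a photoreceptor promoter and mScarlet a red fluorescent reporter. By the study's methods all eyes had subtenon triamcinolone, a corticosteroid, and the left eyes also had intravitreal adalimumab, an antibody to TNF-alpha, so that eye and drug cannot be told apart. Each group thus held 2 libraries, the right and the left eye of 1 animal, and p-values measure the spread between punches of these animals only.

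Protocadherins bind one another across cell contacts through their extracellular cadherin repeats. In the clustered arrays each neuron switches on a few of many alternative members, and the combination is known to let a neuron tell its own branches from those of its neighbours. The delta protocadherins, which fall into delta-1 (here PCDH1, PCDH7 and PCDH9) and delta-2 (PCDH8, PCDH10, PCDH17, PCDH18 and PCDH19), mark subsets of neurons and glia during wiring and in the adult. PCDH15 belongs to neither: it forms the tip links of inner ear hair cells with CDH23, sits at the calyceal processes of photoreceptors, and its loss causes Usher syndrome with deafness and retinal degeneration.

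The promoters of the clustered genes are known to share a short element around the letters CGCT, the CGCT box, and the beta windows are shown because the beta members, near copies of one another, had unlike levels in these cells. The 400 bases before the start codon were searched on both strands in the RefSeq annotation of Mmul_10, the build the files name, for GGTGGCGCT. The letters were present in 9 of the 10 beta members that RefSeq listed under the same symbol, in 0.658% of the windows of 20968 coding genes, and in neither PCDHB1 nor PCDHGB5. The bare letters CGCT were in 71.8% of all windows. The 30-base windows follow, on the plus strand, 5′ to 3′, with the searched letters in capitals:
PCDHB2, chr6:138476568-138476597: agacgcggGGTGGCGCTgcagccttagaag
PCDHB3, chr6:138482405-138482434: gaacgcatGGTGGCGCTgttgactaagaag
PCDHB4, chr6:138500186-138500215: agacgcagGGTGGCGCTgcaggctaagttg
PCDHB5, chr6:138513740-138513769: ggacgcctGGTGGCGCTgcaggctaagagt
PCDHB7, chr6:138550888-138550917: aaacgcaaGGTGGCGCTgctggctaaaaag
PCDHB8, chr6:138556113-138556142: ggacgcgtGGTGGCGCTgcaggataagaag
PCDHB10, chr6:138568827-138568856: agccacaaGGTGGCGCTgcaggctaaagag
PCDHB13, chr6:138589697-138589726: ggacgcgtGGTGGCGCTgcaggataagaag
PCDHB15, chr6:138618311-138618340: caacgcatGGTGGCGCTgcaggctaaggct
The match began between 198 bases (PCDHB10) and 264 bases (PCDHB4) before the start codon. The windows of PCDHB13 and PCDHB15 lay outside the annotated gene, and the other 7 overlapped an annotated exon upstream of the start codon. The windows of PCDHB8 and PCDHB13 were identical, and UMIs of neighbours this alike can be shared or lost in counting, so the beta values are uncertain gene by gene.

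Each library held 9562 to 15080 cells (barcodes with at least 1500 UMIs) at a median of 4606 to 6036 UMIs per cell. Pairs of libraries shared 135 to 255 cell barcodes, 1.39% to 2.16% of the smaller library, where 131 to 258 would be shared by chance. Clusters, built without the protocadherin genes, gave 10 classes named from markers, and 20 of 59 clusters with 31.9% of the cells kept no name. No astrocyte, B cell, endothelial or mural class could be named. The amacrine class was cluster 25 alone, with 738 cells led by GAD1. Clusters 24, 32, 34 and 35, with 566, 328, 390 and 579 cells, also had amacrine markers highest but kept no name. The libraries differed in state: the left NHP1 library had the lowest median mitochondrial share of UMIs in rods (0.358% against 0.664% to 0.977% in the other 7) and held the hRPE65 transgene at 624 CPM (a scaled UMI level, defined below) in rods, although labelled uninjected. In NHP2 the hRPGR transgene stood at 3876 and 1411 CPM in the rods of the right and left hRPGR blebs and also at 169 CPM in those of the right uninjected area, and mScarlet at 311 and 238 CPM in the rods of its blebs. Levels below are CPM, the UMIs of a gene divided by all UMIs of that class and library and multiplied by 1e6, with no division by gene length, since in a 5′ kit each UMI stands for 1 captured RNA end. They are compared within a gene. Errors are SDs over libraries with at least 20 cells of the class, which is 8 unless stated.

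PCDH15 was by far the most counted member, with 1808270 UMIs over all barcodes. It averaged 2684 ± 256 CPM in rods and 1436 ± 438 CPM in cones, and rods were its highest class in 8 of 8 libraries. Outside photoreceptors it was detected everywhere, at 504 ± 262 CPM in amacrine cells, 379 ± 444 in horizontal cells, 262 ± 116 in bipolar cells and 195 ± 61.5 in Müller glia, and at 272 ± 118 CPM in myeloid and 296 ± 267 in T/NK cells (7 libraries), which should lack it. RPE-like cells gave 549 ± 699.6 CPM over 3 libraries, of which the left uninjected area of NHP2 stood at 1353. RNA outside cells (barcodes with 100 to 1000 UMIs) held 376 to 974 CPM. Rods and cones lay above the free RNA of their own library in 8 of 8 libraries, while Müller glia and bipolar cells lay below it in 8 of 8, myeloid cells in 7, horizontal cells in 6, amacrine cells in 5, T/NK cells in 6 of 7 and RPE-like cells in 2 of 3, so the levels in these classes are read as background.

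Within rods, PCDH15 fell into distinct levels. In the 3 rod clusters whose median mitochondrial share was above 1%, with 9672 cells, it stood at 166 CPM, and in the other 8, with 25841 cells, at 3180 CPM, 19.2-fold higher. The lower group ranged from 132 to 198 CPM over the 8 libraries and the higher from 2424 to 3459 CPM, so the ranges were far apart in every library. The lower group lay below the 376 to 974 CPM in the RNA outside cells in every library and is read as background. PCDH9 (96.4 against 30.4 CPM) and PCDHGB5 (322 against 149 CPM) were also higher in the low-mitochondrial rods in 8 of 8 libraries, whereas PCDHAC2 (190 against 171 CPM) was higher in only 5 of 8. PCDHB3 went the other way, at 42.1 CPM in the low-mitochondrial and 58.0 CPM in the high-mitochondrial rods, and was lower in the former in 8 of 8 libraries. The high-mitochondrial clusters made up 1.81% of the rods of the left NHP1 library and 19.0% to 48.9% of those of the other 7. The rod class as a whole stood at 2407 CPM of PCDH15 in the left NHP1 library and at 2226 CPM in the right one, which had the largest share (48.9%); the 6 NHP2 libraries, at 19.0% to 31.9%, stood at 2591 to 2921 CPM.

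**Figure D1:**
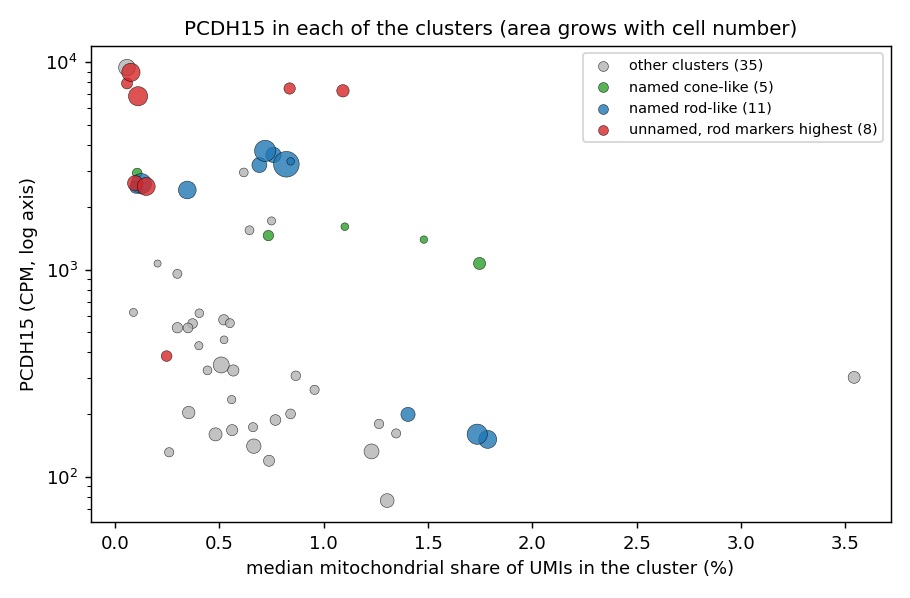
PCDH15 level (CPM, log axis) against the median mitochondrial share of UMIs (percent) in each of the 59 clusters, with point area growing with the number of cells. The 11 rod-like clusters split into 8 between 2422 and 3740 CPM and 3 between 152 and 200.1 CPM, and 5 of the 8 unnamed clusters with rod markers highest lie at 6863 CPM or more.

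In 6 unnamed clusters PCDH15 was itself among the 10 leading genes, so its level there is a description only. Their 13325 cells held 6879 to 8871 CPM of PCDH15 in the 8 libraries, with a median mitochondrial share of 0.104%. They were 9.21% and 28.0% of the cells of the right and left uninjected areas, 22.1% and 8.83% with hRPGR, 8.14% and 5.31% with mScarlet, and 12.3% and 27.1% in NHP1. The shares thus differed between eyes of 1 area as well as between areas. PCDH9 stood at 216 CPM and PCDHGB5 at 638 CPM in these cells, against 85.7 and 294 CPM in all named rods.

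**Figure D2:**
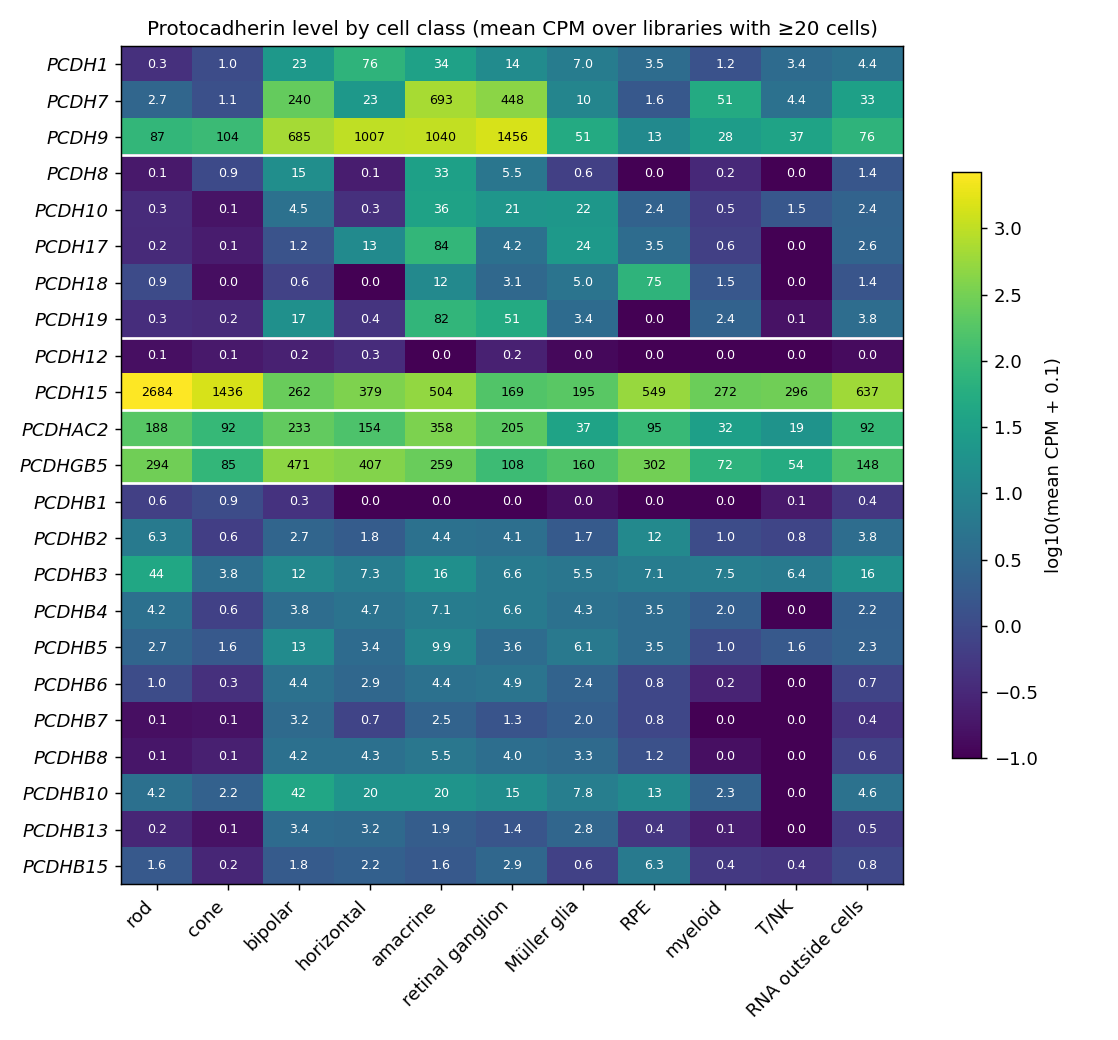
Mean CPM of the 23 members (rows, by subfamily, separated by white lines) in the 10 named classes and in RNA outside cells, coloured on a log10 scale. PCDH15 is highest in rods, PCDH9 in inner neurons, and most beta members stay below 10 CPM.

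The delta-1 genes were genes of the inner retina. PCDH9, which spans 952 kb of chromosome 17, stood at 1456 ± 359 CPM in retinal ganglion cells (6 libraries), 1040 ± 398 in amacrine, 1007 ± 133 in horizontal and 685 ± 140 in bipolar cells, against 104 ± 25.5 in cones, 86.8 ± 17.2 in rods and 50.9 ± 22.8 in Müller glia. RNA outside cells held 32.1 to 136 CPM, and Müller glia lay below it in 6 of 8 libraries, rods in 2 and cones in 1. The first 3 classes overlapped one another within their spread. The bipolar clusters were unlike each other, from 9.46 to 2562 CPM of PCDH9. Clusters 20, the largest with 1742 cells, and 4, with 425 cells, held 9.46 and 29.97 CPM. Both values lay below the RNA outside cells of every library. The unnamed clusters 24, 32, 34 and 35, with amacrine markers highest, held 2580, 802, 27.9 and 633 CPM of PCDH9. In the same order they held 2635, 1131, 2.51 and 1249 CPM of PCDH7. PCDH7 was highest in amacrine cells in 8 of 8 libraries among the 6 large retinal classes, at 693 ± 167 CPM, followed by 448 ± 113 in ganglion cells (6 libraries) and 240 ± 34.6 in bipolar cells, whose clusters ranged from 3.05 to 2599 CPM. It stood at 22.6 ± 39.1 CPM in horizontal cells and 2.75 ± 1.60 in rods, below the RNA outside cells (9.24 to 68.9 CPM) in 6 and 8 of 8 libraries. The horizontal value came from the left NHP1 and left NHP2 uninjected libraries, at 49.8 and 111 CPM, while the other 6 lay between 1.68 and 5.72 CPM. PCDH1 was instead highest in horizontal cells in 8 of 8 libraries, at 76.2 ± 21.2 CPM against 33.6 ± 11.1 in amacrine cells.

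The delta-2 genes were sparse, with their highest class mean among retinal neurons and Müller glia in amacrine cells (cluster 25 alone). The unnamed clusters 24, 32, 34 and 35, with amacrine markers highest, held 48.5, 0, 0.313 and 14.9 CPM of PCDH17, against 89.7 in cluster 25. In the same order they held 59.2, 1.61, 98.03 and 40.5 CPM of PCDH19, against 91.03 in cluster 25. Over the bipolar clusters PCDH19 ranged from 0 to 258 CPM and PCDH8 from 0 to 177 CPM. PCDH17, known for organising groups of presynaptic endings, stood at 84.3 ± 25.4 CPM in amacrine cells and 23.5 ± 15.7 in Müller glia. PCDH19, the X-linked gene of a female-limited epilepsy, stood at 81.6 ± 30.7 CPM in amacrine and 50.8 ± 7.21 in ganglion cells (6 libraries). PCDH10 reached 35.7 ± 10.4 CPM in amacrine cells and 22.3 ± 6.48 in Müller glia. PCDH8, an activity-regulated member also called arcadlin, was at 33.0 ± 10.1 CPM in amacrine and 15.1 ± 9.02 in bipolar cells. PCDH18 was higher outside the retina proper, with 74.7 ± 12.4 CPM in RPE-like cells (3 libraries, 111 UMIs) and 12.2 ± 7.83 in amacrine cells. PCDH12, known from endothelium, gave 63 UMIs in all barcodes and reached 50 in no class.

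Among the clustered genes, PCDHGB5 stood at 471 ± 26.4 CPM in bipolar, 407 ± 25.2 in horizontal, 302 ± 53.7 in RPE-like (3 libraries), 294 ± 40.8 in rod and 259 ± 21.7 in amacrine cells, above the 94.5 to 173 CPM in the RNA outside cells of the same library in every library. Müller glia, at 160 ± 10.2 CPM, lay above it in 4 of 8 libraries. The levels of 108 ± 27.8 CPM in ganglion cells (6 libraries), 85.1 ± 10.6 in cones, 72.1 ± 20.8 in myeloid and 53.6 ± 47.0 in T/NK cells (7 libraries) lay below it in every library and are read as background. PCDHAC2, a C-type member that neurons switch on without the random choice, stood at 358 ± 39.9 CPM in amacrine, 233 ± 7.65 in bipolar, 205 ± 15.7 in ganglion (6 libraries), 188 ± 20.0 in rod, 95.5 ± 17.3 in RPE-like (3 libraries), 91.5 ± 25.3 in cone and 36.6 ± 6.81 in Müller cells. RNA outside cells held 48.5 to 182 CPM of it, and Müller glia lay below that of their library in 8 of 8, cones in 4 of 8 and RPE-like cells in 1 of 3, so these levels are not told apart from background. As the only named alpha and gamma features, these 2 genes may collect UMIs of other exons of their arrays, which the counts do not resolve. The beta members were lower and unlike each other. PCDHB3 was highest in rods in 8 of 8 libraries among the 6 large retinal classes. It stood at 43.9 ± 9.77 CPM there against 16.1 ± 5.69 in amacrine and 11.5 ± 2.18 in bipolar cells. RNA outside cells held 5.60 to 35.2 CPM, and bipolar cells lay below it in 4 of 8 libraries and amacrine cells in 3. PCDHB10 was highest in bipolar cells in 8 of 8 libraries, at 42.0 ± 2.62 CPM. It stood at 19.7 ± 7.15 CPM in horizontal cells, 19.7 ± 6.53 in amacrine cells and 4.18 ± 1.81 in rods. PCDHB5 reached 13.4 ± 2.44 CPM in bipolar cells. The other 8 beta members stayed at or under 7.13 CPM in every neural and glial class. PCDHB1 gave 185 UMIs in all named cells and at most 0.949 CPM, in cones, and PCDHB7 gave 305. PCDHB1 and PCDHGB5, the 2 clustered genes searched without the GGTGGCGCT letters, were the lowest and the highest of the 11 searched by UMIs in named cells. These counts are of different genes and uncertain gene by gene, and a link between the letters and level was not tested.

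Of the 230 member-class pairs, 116 had at least 50 UMIs, the rule for asking about change. PCDHB8 in amacrine cells and PCDHB3 in horizontal cells fell just outside with 46 UMIs each, and PCDH17 in rods and PCDHB6 in amacrine cells just inside with 51. Ganglion and RPE-like cells were too few to test in some libraries. In NHP2 the 8 remaining classes held 99 such pairs, of which 88, from 22 genes, also passed the filter on low counts and were tested with edgeR.

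The first question was whether the blebs differed from the uninjected area of the same eyes. In the mScarlet blebs 2 of the 88 pairs changed, PCDH17 in Müller glia and PCDH15 in cones, both lower, against 0.895% of all gene-class pairs tested, or 0.359% counted in the lower direction alone. PCDH17 in Müller glia was named in advance, since it was known as a call from earlier results of these data. Its test is therefore a description and gives no independent support. An unadjusted p under 0.05 was reached by 23 pairs, or 26.1%, against 14.2% of all genes, with 7 higher and 16 lower. Of these, 4 were in myeloid cells (5 pairs tested) and 2 in T/NK cells (3 tested), where every tested pair was lower. PCDH15 and PCDHGB5 are read as background there. Rod markers summed to 8732 and 5999 CPM in uninjected and 1802 and 2019 in mScarlet myeloid cells. In T/NK cells they summed to 1876 and 8443 against 1619 and 1216 CPM, and their part was not tested. Without the right uninjected library, which held the hRPGR transgene, the log2 fold change of PCDH17 in Müller glia was -2.86 (edgeR). The results with each library left out are given below. The median log2 fold change of the 88 was -0.10, against 0.00 over all genes.

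PCDH17 in Müller glia stood at 35.4 and 44.1 CPM in the right and left uninjected areas, 12.6 and 14.0 where hRPGR was given, and 4.70 and 7.70 in the mScarlet blebs (169, 409, 71, 80, 25 and 42 UMIs). NHP1 had 28.7 and 41.2 CPM. The blebs lay below the 4 libraries labelled uninjected without overlap, but some of these held a transgene in Müller glia. They were the right uninjected area of NHP2 (hRPGR at 33.5 CPM) and the left and right NHP1 libraries (hRPE65 at 85.7 and 1.48 CPM). The blebs also lay below the left uninjected area of NHP2, which held none (44.1 CPM), and below the right NHP1 library (28.7 CPM). In the mScarlet blebs it averaged 6.20 ± 2.12 CPM against 39.7 ± 6.14 and fell by 2.74 on the log2 scale (SE 0.25, adjusted p = 0.0334, edgeR quasi-likelihood with Benjamini-Hochberg adjustment), where 0.185% of the genes of Müller glia were called. It fell by 2.89 in the right and fell by 2.50 in the left eye, and DESeq2 gave an adjusted p of 6.84e-13. Leaving out 1 library kept the direction, but the call held only without the right uninjected library (0.0114) and was lost without each of the other 5 NHP2 libraries, with adjusted p from 0.0708 (right hRPGR) to 0.124 (left mScarlet).

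The share of Müller glia with a PCDH17 UMI was 17.2% and 21.0% in the right and left uninjected areas, 7.06% and 6.83% where hRPGR was given, and 2.42% and 3.56% in the mScarlet blebs. After each cell was thinned to 3000 UMIs, leaving out shallower cells (229 to 400 per library in NHP2), the shares were 9.94% and 9.74%, 3.51% and 4.32%, and 1.27% and 2.16%. Rods, which should lack PCDH17, had a UMI in 0% to 0.633% of cells, at a median of 4811 to 7485 UMIs, and RNA outside cells held 0.372 to 6.56 CPM. The mScarlet shares were thus low but above those of rods.

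Müller glia comprised 5 clusters that areas filled unevenly. In cluster 45, led by TF, FRZB and WIF1, PCDH17 stood at 40.3 CPM in the right uninjected area (306 cells), 17.4 and 4.91 in the right and left hRPGR blebs, and 5.42 and 9.26 in the mScarlet blebs (370 and 399 cells). In cluster 18, whose leading genes include the neuronal CTNNA2, the left uninjected area had 115 CPM (91 cells) and the mScarlet blebs 12.02 and 6.56 (2 UMIs each). In cluster 16 the right eye gave 15.4 CPM in the uninjected area and 0 of 336 cells with a UMI in the mScarlet bleb, which allows a share of cells with a UMI, not of expressing cells, of up to 0.893%, but the left eye gave 0 UMIs in 101 uninjected cells and 3.81 CPM in the bleb. Clusters 15 and 17, with 51.3% and 34.2% of the left uninjected Müller cells, held 1 to 9 cells in each of the 3 areas of the right eye and 18 and 3 cells in the left mScarlet bleb, so that the right eye lacked them in the uninjected area too. In the left eye they gave 22.8 and 52.1 CPM in the uninjected area and 12.9 and 21.8 in the hRPGR bleb. The part of cluster makeup in the change was not tested. Rod markers summed to 4292 and 5314 CPM in the Müller glia of the uninjected areas and 2438 and 1998 in those of the mScarlet blebs. Amacrine markers summed to 248 and 288 against 209 and 236 CPM. Interferon-response genes summed to 27324 and 2528 CPM in the right and left uninjected areas and 14040 and 10999 in the mScarlet blebs. The part of these marker and interferon sums in the change was not tested.

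**Figure D3:**
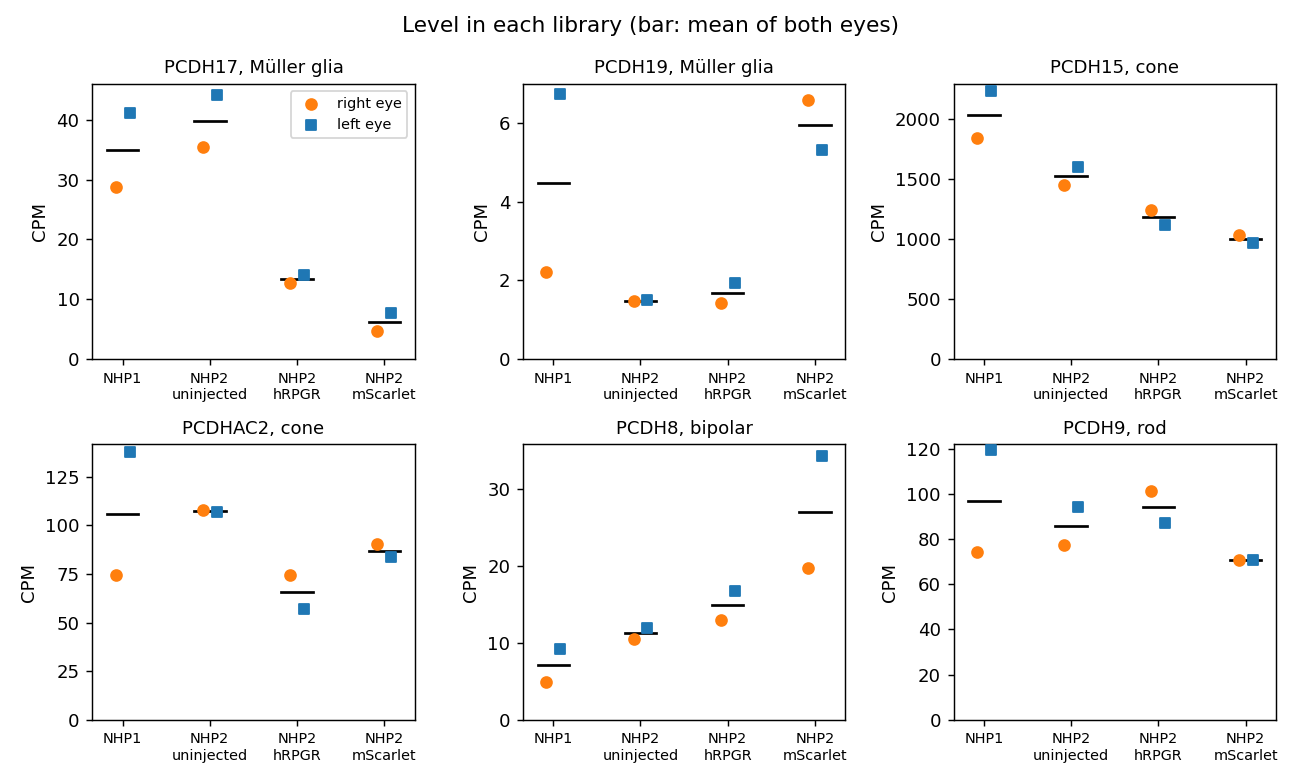
Level (CPM) of 6 member-class pairs in each of the 8 libraries, by group, with the right eye as circles, the left as squares and the mean of both eyes as a bar. PCDH17 in Müller glia and PCDH15 in cones are lower in both bleb groups than in the uninjected areas of NHP2, and PCDH19 in Müller glia is higher in the mScarlet blebs alone among the NHP2 groups.

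PCDH15 in cones stood at 1451 and 1600 CPM in the right and left uninjected areas, 1244 and 1114 in the hRPGR blebs, 1034 and 970 in the mScarlet blebs, and 1842 and 2232 in NHP1. No NHP2 group overlapped another, and the right uninjected area held hRPGR at 12.4 CPM in cones. With 2 libraries a group such gaps were common among the 88 pairs. Groups did not overlap in 44 pairs for mScarlet against uninjected, 31 for hRPGR against uninjected and 38 between the blebs. In the mScarlet blebs it averaged 1002 ± 45.3 CPM against 1525 ± 106 and fell by 0.73 on the log2 scale, or 39.5% (SE 0.11, adjusted p = 0.0315, edgeR), where 0.903% of the genes of cones were called. With the eye as a block the adjusted p was 0.0941, and it was 0.0950 when unnamed clusters joined the class of their highest marker score. The call was also lost without the right (0.0952) or left (0.213) uninjected library and without the right (0.147) or left (0.345) mScarlet library. Within cluster 47, which held 56.2% to 87.4% of the cones of the uninjected areas and mScarlet blebs, the level was 1274 and 1262 CPM in the uninjected areas and 926 and 897 in the mScarlet blebs. Within cluster 29, of low mitochondrial share, it was 2923 and 2891 against 1873 and 1637 CPM, the last from 14 cells. Cluster 29 made up 13.0% and 25.7% of the cones of the uninjected areas and 8.82% and 10.4% of those of the mScarlet blebs. The difference was thus present in both eyes inside each of these clusters. Rod markers in cones summed to 949 and 1661 CPM in the uninjected areas and 1109 and 329 in the mScarlet blebs, and interferon-response genes to 496 and 100.1 against 1026 and 987 CPM, and their part in the difference was not tested. Rods showed no such call, at 2591 and 2897 CPM in the uninjected areas and 2921 and 2751 in the mScarlet blebs.

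**Figure D4:**
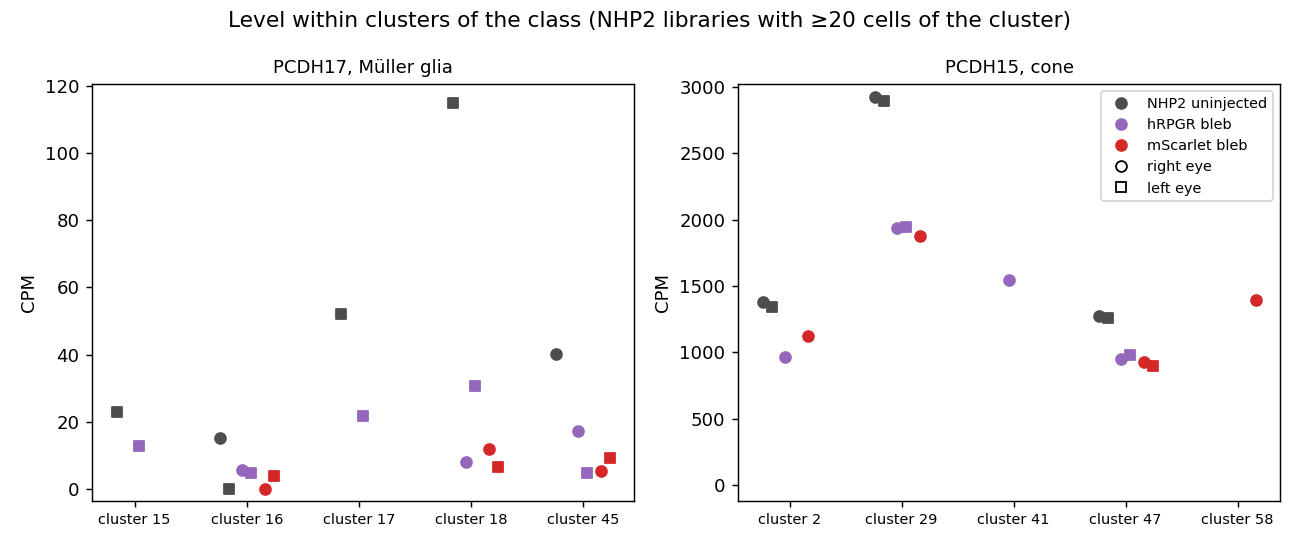
Level (CPM) of PCDH17 in the Müller clusters and of PCDH15 in the cone clusters, for NHP2 libraries with at least 20 cells of the cluster, coloured by area (circles right eye, squares left eye). In cone clusters 29 and 47 the uninjected areas lie above both bleb groups. PCDH17 lies lower in the mScarlet bleb than in the uninjected area of the same eye in clusters 16 and 45 (right) and 18 (left). It lies higher in the left eye of cluster 16, and the other clusters and eyes lack cells for this comparison.

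The 3 next pairs by p did not pass in edgeR, though DESeq2 called PCDH9 in T/NK cells (adjusted p = 9.84e-05) and PCDH8 in bipolar cells. PCDH9 in T/NK cells, at 37.2 ± 34.0 CPM over 7 libraries, was at 80.6 and 90.9 CPM in the right and left uninjected areas and 8.73 and 10.7 in the mScarlet blebs (log2 fold change -3.13, SE 0.51, adjusted p = 0.0850, edgeR), but the uninjected values rest on 7 and 15 UMIs in 24 and 37 cells, and RNA outside cells held 35.4 and 74.4 CPM in the uninjected and 67.1 and 136 in the mScarlet libraries. PCDH8 in bipolar cells was at 10.5 and 12.002 CPM in the uninjected areas, 13.0 and 16.7 with hRPGR, and 19.8 and 34.4 with mScarlet (1.28, SE 0.26, adjusted p = 0.0833), and reached 0.0410 with the eye as a block and 0.0375 in DESeq2. The gene was highest in 3 of the 11 bipolar clusters, 21, 28 and 31, at 71.0, 177 and 67.6 CPM over all libraries, and at most at 7.29 CPM in the other 8. Among those 8, cluster 20 gave 0 and 0 UMIs in the right and left uninjected areas and 3 and 30 in the mScarlet blebs. In the same order cluster 19 gave 1 and 1 against 8 and 19, cluster 9 gave 1 and 1 against 0 and 7, and cluster 38 gave 0 and 1 against 0 and 0. No test was run on single clusters. The part of the mix of clusters in the class value was not tested. In cluster 31 it was at 14.7 and 26.8 CPM in the right and left uninjected areas of NHP2 (4 and 8 UMIs), 87.3 and 38.0 with hRPGR (12 and 15 UMIs), and 113 and 194 with mScarlet (35 and 69 UMIs). In cluster 28 it was at 148 and 216 CPM in the uninjected areas, 127 and 197 with hRPGR, and 164 and 269 with mScarlet. In cluster 21 the values were 69.3 and 66.1, 107 and 70.6, and 111 and 78.3 CPM in the same order. These 3 clusters, singled out after their values were seen, held 1.95% to 7.73% each of the bipolar cells of these 6 libraries, and no test was run on them. PCDH19 in Müller glia was at 1.47 and 1.51 CPM in the uninjected areas and 6.58 and 5.31 in the mScarlet blebs (1.92, SE 0.35, adjusted p = 0.101), on 7, 14, 35 and 29 UMIs. RNA outside cells held 0.842 and 6.78 CPM in the uninjected and 1.52 and 4.35 in the mScarlet libraries. Its values and those of PCDH17 went in opposite directions in the same cells. The left NHP1 library also held 6.74 CPM of PCDH19.

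**Figure D5:**
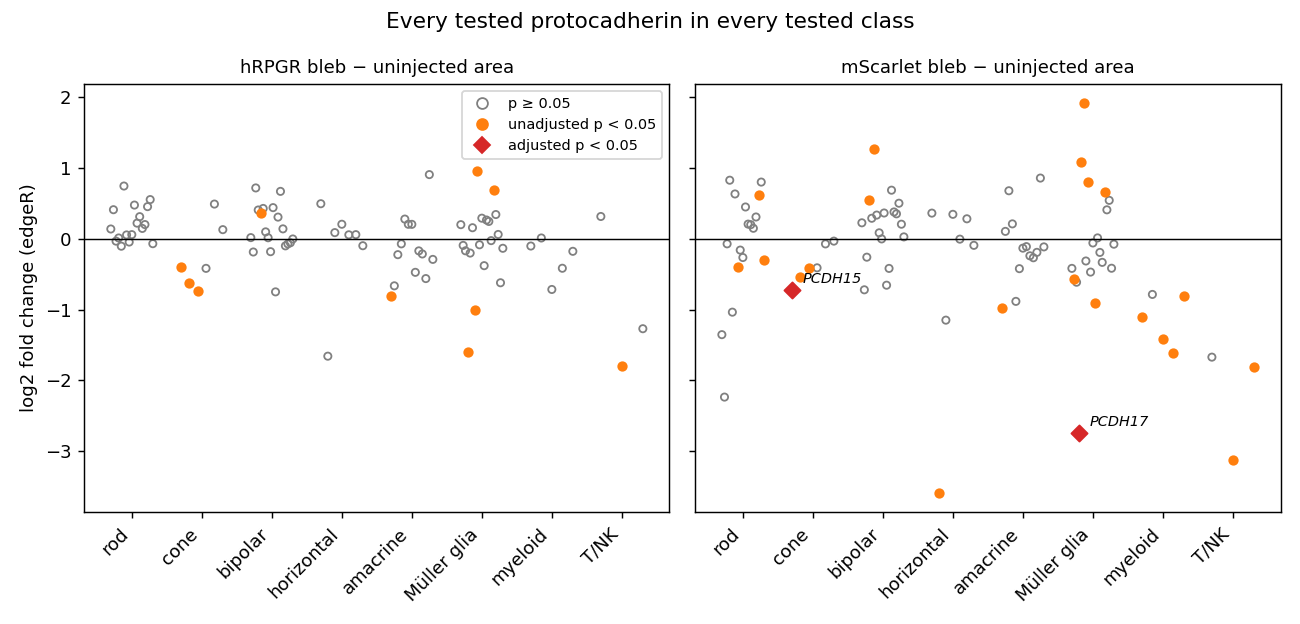
Log2 fold change of each tested protocadherin in each tested class for the hRPGR and the mScarlet blebs against the uninjected area, 88 pairs each, which share the uninjected libraries. Open circles have an unadjusted p of 0.05 or more, filled circles a smaller one, and diamonds an adjusted p under 0.05: none in the hRPGR blebs, PCDH17 in Müller glia and PCDH15 in cones in the mScarlet blebs.

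In the hRPGR blebs 0 of the 88 pairs passed in edgeR, against 0.0123% of all gene-class pairs. An unadjusted p under 0.05 was reached by 10 pairs, or 11.4%, against 4.51% of all genes, and DESeq2 called 2, PCDH17 in Müller glia and PCDHAC2 in cones. Without the right uninjected library the log2 fold changes of PCDH7 and PCDH15 in horizontal cells were -5.08 and -2.44 (edgeR). Without the left hRPGR library those of PCDH9 in cones and PCDH15 in bipolar cells were -0.98 and 1.23. PCDH15 in horizontal and bipolar cells is read as background above. The smallest p was that of PCDH17 in Müller glia, at -1.59 on the log2 scale (SE 0.22, adjusted p = 0.502 in edgeR and 0.000578 in DESeq2). PCDHAC2 in cones was at 74.7 and 56.8 CPM against 108 and 107 in the uninjected areas (-0.73, SE 0.14, adjusted p = 0.258). The values of PCDH15 in cones gave -0.40 (SE 0.11, adjusted p = 0.566) and those of PCDH9 in cones -0.63 (SE 0.19, adjusted p = 0.616), with 68.8 and 101 CPM against 135 and 123. PCDH9 in T/NK cells gave -1.80 (SE 0.55, adjusted p = 0.953) on 13 and 4 UMIs in the blebs.

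Between the mScarlet and the hRPGR blebs 0 of 88 pairs passed in edgeR, against 0.119% of all gene-class pairs, with 13 at an unadjusted p under 0.05, or 14.8% against 7.79% of all genes, and DESeq2 called 1, PCDH9 in rods. PCDH19 in Müller glia gave 1.76 (SE 0.35, adjusted p = 0.264), with 1.42 and 1.92 CPM in the hRPGR blebs. PCDH9 in rods was at 101 and 87.0 CPM in the hRPGR and 70.6 and 70.9 CPM in the mScarlet blebs (-0.45, SE 0.09, adjusted p = 0.387). For PCDH17 in Müller glia the value was -1.15 (SE 0.26, adjusted p = 0.303). PCDH8 in bipolar cells gave 0.85 (SE 0.25, adjusted p = 0.555), and PCDHB3 in bipolar cells was at 14.0 and 13.8 against 9.10 and 7.81 CPM (-0.72, SE 0.20, adjusted p = 0.455).

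Between the left and right eyes of NHP2, across the 3 areas, 0 of 88 pairs passed in edgeR and 0 in DESeq2, against 0.00336% of all gene-class pairs, with 6 at an unadjusted p under 0.05, or 6.82% against 2.23% of all genes. PCDH17 in amacrine cells was at 47.2, 60.5 and 60.8 CPM in the right uninjected, hRPGR and mScarlet libraries and 98.4, 88.9 and 115 in the left ones (0.79, SE 0.24, adjusted p = 1.00), without overlap, but the right uninjected value rests on 16 UMIs of 29 cells. PCDHB3 in rods gave -0.29 (SE 0.07), PCDH8 in bipolar cells 0.47 (SE 0.16), PCDH10 in Müller glia 0.37 (SE 0.12) and PCDH7 in bipolar cells 0.22 (SE 0.09), all with adjusted p of at least 0.999 in edgeR. PCDH17 in Müller glia gave 0.35 (SE 0.15).

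Between the uninjected areas of NHP2 and the retina of NHP1, animals that also differ in age and vector, 88 pairs in 7 classes were tested and 0 passed in edgeR, against 0.752% of all gene-class pairs. An unadjusted p under 0.05 was reached by 10, or 11.4%, against 9.98% of all genes, and DESeq2 called 2, PCDHGB5 in rods and PCDH15 in cones. Without the left NHP1 library, which held hRPE65, 2 passed in edgeR, and without the right uninjected area of NHP2 1 did. PCDHGB5 in rods was at 308 and 336 CPM in NHP2 and 224 and 263 in NHP1 (0.38, SE 0.10, adjusted p = 0.200). PCDH15 in cones gave -0.45 (SE 0.14, adjusted p = 0.231). PCDHB15 in rods was at 1.48 and 1.93 against 0.630 and 0.430 CPM (1.63, SE 0.46, adjusted p = 0.227), PCDHB10 in cones gave 1.40 (SE 0.53, adjusted p = 0.308) and PCDHB5 in Müller glia -1.01 (SE 0.29, adjusted p = 0.633). PCDH17 in Müller glia gave 0.19 (SE 0.22, adjusted p = 0.876), and its NHP1 and NHP2 values overlapped.

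Genes that work with the family were read in the same fits. Of 137 gene-class pairs of other cadherins, 1 rose and 2 fell in the mScarlet blebs against the uninjected area, where 0.895% of all gene-class pairs were called. CDH2, the N-cadherin of photoreceptor junctions, fell in cones (by 0.82 on the log2 scale, SE 0.13, adjusted p = 0.0380), from 616 and 742 to 443 and 393 CPM. CDH4, or R-cadherin, rose in bipolar cells by 1.15 (SE 0.18, adjusted p = 0.0260), from 26.8 and 37.8 to 74.2 and 69.0 CPM. CDHR1, a cadherin of photoreceptor outer segments, fell by 1.16 in myeloid cells (SE 0.21, adjusted p = 0.0285). Of the proteins that bind PCDH15 or share its Usher complex, 1 of 43 pairs was called, ADGRV1 in myeloid cells, which fell by 1.38 (SE 0.26, adjusted p = 0.0331). Myeloid rod markers summed to 8732 and 5999 CPM in the uninjected areas and 1802 and 2019 in the mScarlet blebs, beside both myeloid values. The cytoplasmic partners (138 pairs) and the genes of promoter choice in the arrays, such as CTCF and SMCHD1 (74 pairs), had 0 called in the mScarlet contrast, with 19 and 7 at an unadjusted p under 0.05, or 13.8% and 9.46% against 14.2% of all genes. The other cadherins had 33 (24.1%) and the Usher proteins 9 (20.9%) at that level. In the hRPGR blebs 0 genes of these lists passed in edgeR, with 14, 4, 3 and 1 pairs of the cadherins, Usher proteins, cytoplasmic partners and promoter-choice genes at an unadjusted p under 0.05 (10.2%, 9.30%, 2.17% and 1.35%, against 4.51% of all genes), and between the blebs 1 passed, CDHR1 in myeloid cells (it fell by 1.13 in the mScarlet blebs, adjusted p = 0.0429), where 0.119% of all gene-class pairs were called. At an unadjusted p under 0.05 between the blebs stood 14.6% of the cadherin, 14.0% of the Usher, 7.97% of the cytoplasmic-partner and 4.05% of the promoter-choice pairs, against 7.79% of all genes. Between the animals 3 passed, where 0.752% of all gene-class pairs did: CDH20 (0.69) and DSC3 (-3.83) in bipolar cells, of 123 cadherin pairs, and CTNNA2 (-2.94) in myeloid cells, of 125 pairs of cytoplasmic partners. DSC3 was low throughout, at 5.15 and 3.18 CPM in the right and left NHP1 libraries and 0.183 and 0.353 in the uninjected areas of NHP2. At an unadjusted p under 0.05 stood 18.7% of these cadherin pairs and 6.40% of these partner pairs, against 9.98% of all genes. Beside the CTNNA2 value, amacrine markers in myeloid cells summed to 98.5 and 76.5 CPM in NHP1 and 12.7 and 48.4 in NHP2. Bipolar markers there summed to 122 and 318 against 152 and 186 CPM. The right NHP1 library had 31 myeloid cells, and the part of these markers was not tested.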

How the data were processed

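Retinal punches were profiled with the 10x Chromium 5′ kit. The files hold whole UMI counts per gene and barcode, deposited unfiltered by the authors, who made them with Cell Ranger (version 8.0.1 per the file headers) on Mmul_10 with the transgene sequences added; whether intronic reads were counted is not given in the sources used here. A barcode counted as a cell from 1500 UMIs and 300 genes upward, with mitochondrial UMIs up to 20% (91796 cells). Scrublet's automatic threshold marked at most 0.0196% of cells per library, so the highest-scoring share expected from loading (0.8% per 1000 cells) was removed instead, 8604 cells or 9.37%. The other 83192 cells were clustered in scanpy 1.11.5 on 3000 variable genes without the protocadherins, 40 components, 15 neighbours and Leiden resolution 2, and 39 of 59 clusters were named from markers.

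Summed UMI counts of each class and library were used for classes with at least 20 cells in each library of a fit, and tested over all genes of a class with edgeR 4.0.16 (quasi-likelihood, TMM, filterByExpr, R 4.3.3), with Benjamini-Hochberg adjustment within the class and a threshold of 0.05. The 6 NHP2 libraries shared a fit on area and eye was tested across areas; NHP1 was compared with the uninjected areas of NHP2. Alternatives were DESeq2 1.42.0, RLE size factors, no low-count filter, a minimum of 3000 UMIs, unnamed clusters added to classes, the eye as a block, each library left out, no area term for the eyes, and minimums of 20 or 100 UMIs for members. The pairing by eye comes from the labels, as areas of 1 eye of 1 animal share it; the deviations of same-eye libraries correlated between -0.42 and 0.33 over 24 comparisons, 2 of them over 0.1. The text names every called pair, PCDH17 in Müller glia, the 3 highest members of each class, the 5 pairs with the lowest p in each contrast and, of other lists, the called genes up to 5. The members and gene lists were chosen with earlier results of these data known. Intervals and floors cover counting error only. Gene positions are those of the RefSeq annotation of Mmul_10, matched by symbol for 20 of 23 members.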

Additional observations from a re-analysis of the deposited data

Results flagged for a closer look

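Some members differed between blebs and uninjected area in opposite directions in 2 cell classes, in both eyes, each with an unadjusted p under 0.05 in edgeR; the difference between the classes was not tested. In the mScarlet blebs PCDH9 had a log2 fold change of 0.80 in Müller glia, against -3.13 in T/NK cells, -0.39 in rods and -0.55 in cones, gaps of 3.93, 1.19 and 1.34. In the hRPGR blebs, which share the uninjected libraries, PCDH9 had 0.96 in Müller glia, against -1.80 in T/NK cells and -0.63 in cones, gaps of 2.76 and 1.58. PCDH7 in the hRPGR blebs had 0.37 in bipolar cells and -1.01 in Müller glia, a gap of 1.38. None of these fold changes passed after adjustment in edgeR. In the mScarlet blebs DESeq2 called PCDH9 in T/NK cells (adjusted p = 9.84e-05) and in rods (adjusted p = 0.00563). In Müller glia PCDH9 lay below the RNA outside cells of its library in 6 of 8 libraries and PCDH7 in 8 of 8.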

How the results depend on the processing

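The count of protocadherins called in the mScarlet blebs against the uninjected area (2) became 5 in DESeq2, 12 without the low-count filter and 1 with unnamed clusters added, and ranged from 0 to 6 with 1 library left out. With the eye as a block it stayed 2, PCDH17 in Müller glia (adjusted p = 0.0418, edgeR) and, in place of PCDH15 in cones, PCDH8 in bipolar cells. The 0 called in the hRPGR blebs became 2 in DESeq2, 5 without the filter and 0 to 2 with a library left out, and the 0 between blebs became 1, 5 and 0 to 1. The 0 between eyes became 1 without the filter and 0 to 2 with a library left out. The 0 between animals became 2 in DESeq2, 2 without the filter, 0 to 2 with a library left out and 6 with the eye as a replicate block, where same-numbered eyes share side and drug but not the animal. The fold change of PCDH17 in Müller glia in the mScarlet blebs ranged from -3.16 to -2.42 over 12 alternatives and was called in 7, and that of PCDH15 in cones from -0.80 to -0.62, called in 6. PCDH17 in Müller glia between animals ranged from -0.033 (without the right NHP1 library, a turn of direction) to 0.47 (without the left). Over the 26 comparisons of 1 gene in 1 class that remain beside PCDH17 in Müller glia in the mScarlet blebs, 270 values kept direction and side of the threshold and 23 newly passed it, while the 6 that dropped below it and the 1 that turned are those of PCDH15 in cones and of PCDH17 between animals just given. The causes were not tested. With 2 libraries a group, and under 100 UMIs for many pairs, small differences were not detectable.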

Other observations

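PCDH7 stood at 371 CPM in the myeloid cells of the right NHP1 library, which had 31 such cells, and between 0.914 and 11.6 CPM in those of the other 7. PCDH15 in horizontal cells stood at 1266 CPM in the left uninjected area and 864 CPM in the left NHP1 library, against 40.1 to 311 CPM in the other 6. Its log2 fold change in the mScarlet blebs against the uninjected area was -3.59 (adjusted p = 0.139, edgeR), which did not pass, and rod markers summed to 7148 CPM in the horizontal cells of that left uninjected area.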
